A study of Mus musculus with 2 samples.

Results

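Mitotic glioma cells were studied in single-cell RNA sequencing of mouse gliomas induced by PDGFB, a platelet-derived growth factor chain. A cell was taken as mitotic when it held at least 1 UMI, a unique molecular identifier that stands for 1 captured RNA molecule, for 4 or more of 8 genes: Hmmr, Kif2c, Kif20a, Cenpe, Ccnb2, Plk1, Aurka and Cdc20. The cells were thus chosen by measured counts. Of 6784 barcodes that passed a minimum of 500 genes and a ceiling of 15% on mitochondrial UMIs, 495 met this rule, 278 in pool 1 and 217 in pool 2. There was 1 group and no control group: 2 pools of C57BL/6 glioma cells, each mixed from 2 tumours before capture. PDGFB had been transferred in utero into cells lining the telencephalic ventricles, tumours were collected about 40 days after birth, and tumour cells were sorted by GFP. All tumours therefore carried the same transgene, and the mouse behind each cell was not told apart.

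A cell that has copied its DNA enters mitosis when cyclin B and its kinase Cdk1 become active. Polo-like and Aurora kinases then build the spindle, kinetochores tie chromosomes to it, and the anaphase-promoting complex (APC/C), with Cdc20, starts the separation of sister chromatids. Many of these genes are transcribed together late in the cycle, under the MuvB complex with B-Myb and Foxm1, which acts at CHR elements (TTTGAA), and under NF-Y, which binds CCAAT boxes. In the oligodendrocyte lineage, platelet-derived growth factor drives the division of precursors that carry its receptor Pdgfra.

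The promoters of the rule's genes are shown because these genes chose the cells and because both elements could be looked for in them. The RefSeq table (GRCm38.p6) held a window for 7 of the 8 genes, all but Kif20a. Each window ran from 250 bases before to 50 bases after the annotated start. The letters CCAAT, on either strand (ATTGG on the other), stood in 6 of the 7 windows, against 37.4% of all 32851 windows of the table. TTTGAA, on either strand (TTCAAA on the other), also stood in 6 of the 7, against 17.9% of all windows. Both stood in 5 of the 7, against 6.95%, and at least 2 CCAAT stood in 4 of the 7, against 11.7%. A match is a run of letters and not a measured binding site. The 250 bases before the start are given 5′ to 3′ on the gene's strand, with CCAAT (or ATTGG) and TTTGAA (or TTCAAA) in capitals, for Ccnb2 at chr9:70421555-70421804 (minus strand), Cdc20 at chr4:118437344-118437593 (minus strand), Hmmr at chr11:40733438-40733687 (minus strand) and Plk1 at chr7:122159185-122159434 (plus strand).
Ccnb2: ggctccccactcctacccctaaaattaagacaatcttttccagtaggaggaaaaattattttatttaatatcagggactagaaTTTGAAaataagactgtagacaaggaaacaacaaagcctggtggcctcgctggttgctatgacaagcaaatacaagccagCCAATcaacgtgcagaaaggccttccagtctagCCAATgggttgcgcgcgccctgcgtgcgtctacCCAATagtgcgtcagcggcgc
Cdc20: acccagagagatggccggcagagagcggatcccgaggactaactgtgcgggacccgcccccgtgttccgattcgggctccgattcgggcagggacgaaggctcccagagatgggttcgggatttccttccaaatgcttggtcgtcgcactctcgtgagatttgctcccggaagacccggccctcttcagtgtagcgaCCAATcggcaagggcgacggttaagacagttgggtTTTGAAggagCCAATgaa
Hmmr: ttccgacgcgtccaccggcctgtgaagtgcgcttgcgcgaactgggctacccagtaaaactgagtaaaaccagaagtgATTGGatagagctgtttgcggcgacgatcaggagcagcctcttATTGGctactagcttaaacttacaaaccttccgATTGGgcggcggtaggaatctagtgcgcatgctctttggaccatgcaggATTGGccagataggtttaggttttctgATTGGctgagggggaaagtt
Plk1: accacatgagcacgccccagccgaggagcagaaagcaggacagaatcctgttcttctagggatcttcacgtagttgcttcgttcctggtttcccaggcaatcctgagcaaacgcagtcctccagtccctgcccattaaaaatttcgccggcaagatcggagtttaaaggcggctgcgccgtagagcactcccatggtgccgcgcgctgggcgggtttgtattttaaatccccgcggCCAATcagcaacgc
Ccnb2, which encodes cyclin B2, had CCAAT at 87, 54 and 21 bases before the start and TTTGAA at 167 bases before it, with a further TTTGAA that begins at base 4 after it. In Cdc20, the activator of the APC/C, TTTGAA stood 18 bases before the start, between CCAAT at 53 and at 8. The window of Hmmr, whose product organizes spindle microtubules, held 5 ATTGG, at 172, 129, 96, 47 and 20 bases before the start. In Aurka, Hmmr and Plk1 the only TTTGAA began after the start, at bases 32, 8 and 30. The stretches printed for Hmmr and Plk1 therefore show none. The genes that differed most between mitotic and unmarked cells, described further on, were less alike: CCAAT stood in 4 of the 10 windows found for the 12 with the largest fold upward, TTTGAA in 4, and both in 2.

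Mitotic cells made up 7.93% of cells in pool 1 (95% interval by the exact Clopper-Pearson method, 7.06 to 8.87) and 6.62% in pool 2 (5.79 to 7.53), a mean of 7.27% ± 0.926 (SD, n = 2 pools). Because a deeper cell more easily shows a UMI, the share was also taken after thinning each cell to 5000 UMIs. It was then 7.78% in pool 1 (6.67 to 9.0, 165 of 2122 cells) and 5.56% in pool 2 (4.66 to 6.56, 130 of 2340 cells), with 1384 and 938 cells too shallow to use. These intervals cover counting error only. At 5000 UMIs these intervals did not overlap, while at 3000 UMIs they did, with 4.73% in pool 1 (3.97 to 5.59) and 3.89% in pool 2 (3.18 to 4.70). With 1 group of 2 pools the difference has no test.

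Most cells held none of the 8 genes: 5136 of the 6784, called unmarked here. The numbers of cells fell from 855 with 1 gene to 194 with 2, 104 with 3 and 68 with 4, and were 88, 55 and 79 with 5, 6 and 7. At 8 genes the count was 205 cells, 110 in pool 1 and 95 in pool 2, so 39.6% and 43.8% of the mitotic cells held the whole set. At the edge of the rule, from 3 to 4 genes, the level of the 8 genes fell in pool 1 and rose in pool 2. In pool 1 the 60 cells with 3 genes had a summed level of 425 CPM (counts scaled to 1 common total in each set of summed cells) for the 8 genes and the 43 cells with 4 genes had 399 CPM, and in pool 2 the 44 and 25 cells had 319 and 527 CPM. All mitotic cells together stood at 1752 and 1502 CPM.

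**Figure D1:**
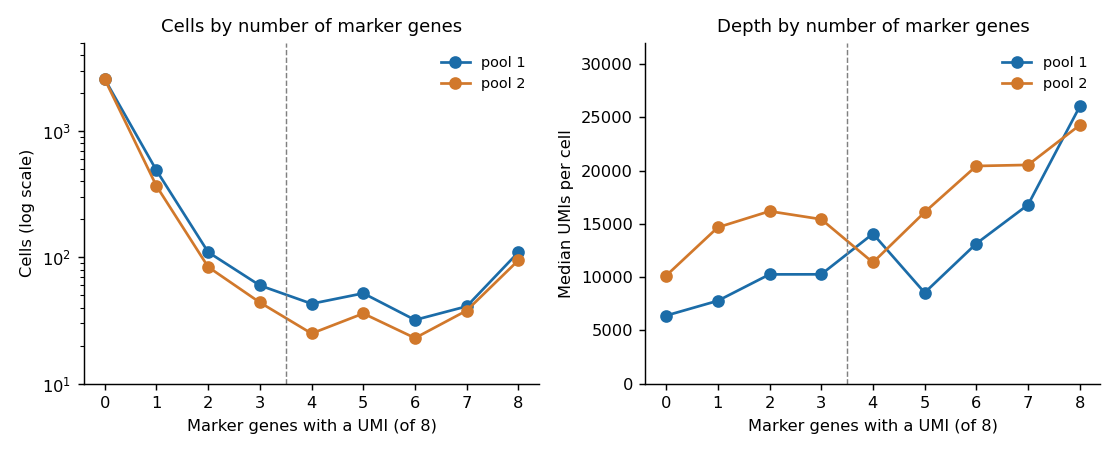
Left, number of cells (log scale) and right, median UMIs per cell, against the number of the 8 marker genes with a UMI, for pool 1 (blue) and pool 2 (orange). The dashed line marks the rule. Cells with all 8 genes, 110 and 95, outnumber those with 4 to 7 at each step, and the unmarked cells are the shallowest, at medians of 6397 and 10140 UMIs.

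Within the mitotic cells, the kinetochore motor Cenpe was detected most often, in 95% of cells in pool 1 and 93.5% in pool 2. Its level was 466 and 378 CPM. Kif20a, a kinesin of the central spindle needed for cytokinesis, was detected least often in pool 1, in 65.8% of cells, and Aurka, a kinase of the spindle poles, least often in pool 2, in 69.6%. Cdc20 stood at 321 and 286 CPM and Hmmr at 293 and 210 CPM. Ccnb2 was at 231 and 214 CPM, Plk1, the polo-like kinase, at 135 and 137 CPM, and the microtubule depolymerase Kif2c at 118 and 108 CPM. Aurka was at 103 and 89.3 CPM and Kif20a at 85.6 and 78.2 CPM. These values chose the cells and are a description. For comparison, 36 and 50 cells that held 4 or more markers of microglia or oligodendrocytes were thinned to 5000 UMIs as well. Each gene had a UMI in 0 to 11.1% of them, and in 3.68 to 12.3% of all cells at that depth. In pool 1 Aurka had a UMI in 8.33% of them and in 5.80% of all cells. The share was 31.5 to 73.6% in the mitotic cells, but these had been chosen by the same genes. Mitotic cells were not taken out of the microglia-like and oligodendrocyte-like cells, nor out of all cells. Before thinning, 1 microglia-like and 6 oligodendrocyte-like cells of pool 1 and 3 oligodendrocyte-like cells of pool 2 met the rule. The values therefore do not measure free RNA alone.

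Mitotic cells were sequenced deeply. Their median was 18981.5 UMIs in pool 1 and 20043 in pool 2, 2.97 and 1.98 times the medians of all unmarked cells. The tests against unmarked cells were therefore made on pairs of similar depth within a pool, with total UMIs within 0.25 on the log2 scale, 265 pairs in pool 1 and 209 in pool 2, and 13 and 8 mitotic cells without a match stayed out. In the pairs the medians were 18441 against 18440 UMIs and 19672 against 19643. The summed UMIs were somewhat higher on the mitotic side, 5051838 against 4701162 in pool 1 and 4759303 against 4575646 in pool 2. The median mitochondrial share of the paired mitotic cells was 2.36% and 0.861%, against 2.71% and 1.20% in the unmarked partners. Ribosomal protein genes took 10.8% and 12.6% of UMIs against 12.6% and 13.4%, and the nuclear RNA Malat1 3.17% and 3.14% against 3.98% and 3.62%. Each of these shares was lower in mitotic cells in both pools, and their part in the results was not tested. Pools 1 and 2 shared 4 barcodes, 1 of them a mitotic cell of pool 1.

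Mitotic cells carried the lineage genes of the glioma. The platelet-derived growth factor receptor Pdgfra stood at 1129 and 1172 CPM in the paired mitotic cells, and the lineage factor Olig2 at 563 and 488 CPM. Markers of microglia summed to 3.61 and 1.97 CPM over all mitotic cells, with 8 and 5 of 8 markers detected, and those of endothelial and mural cells to 1.55 and 1.79 CPM. T cell and granulocyte markers were at 0. Erythroid markers summed to 0.516 and 0.179 CPM in mitotic cells but to 525 CPM in the unmarked partners of pool 2. Markers of mature oligodendrocytes summed to 195 and 71.5 CPM in mitotic cells and to 1869 and 1093 CPM in their unmarked partners. By 4 or more markers of 1 type, 7 and 3 mitotic cells, in pools 1 and 2, were also of another type. Astrocyte and neuron markers were not used in that count. Astrocyte markers summed to 760 and 849 CPM in mitotic cells, against 956 and 1134 CPM in their unmarked partners. Neuron markers summed to 91.8 and 98.4 CPM, against 103 and 149 CPM. The 8 genes are transcribed in G2 as well as in mitosis, and cells of these stages cannot be told apart here.

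The first comparison asked what else distinguishes mitotic cells from unmarked cells of the same tumours and depth. It was fitted with edgeR's quasi-likelihood test on 4 sums of counts, 1 per state and pool, with the pool as a block; the 8 rule genes were left out of the calls. Of 12207 genes tested, 2034 were higher in mitotic cells and 1617 lower at an adjusted p under 0.05, so 16.7% of genes were called higher and 13.2% lower (29.9% either way). At 4-fold or more, 399 were higher and 60 lower, and the median log2 difference over all genes was -0.02. The counts depend on the model: DESeq2 called 883 higher and 252 lower, and edgeR without the block 1128 and 420, which moves the higher share of calls from 55.7% to 77.8% and 72.9%. Those calls were all among the 2034 and 1617. With 2 pools there was 1 residual degree of freedom, so each p-value rests largely on a spread estimated across genes. A gene can therefore be called though its difference varied between the pools, as with Cdkn1a below.

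Nearly the whole mitotic machinery was higher. Over 5 lists of mitosis genes, 127 of 133 tested were called higher (95.5%, against 16.7% of all genes) and 0 lower, with a median log2 difference of 4.47. These genes belong to the same programme as the 8 that chose the cells, so the counts describe how completely that programme was found in them.

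Among cyclins, kinases and checkpoint genes, 21 of 21 were higher (median log2 difference 5.68). Ccnb1, which encodes cyclin B1, was at 455 CPM in mitotic and 1.49 CPM in unmarked cells of pool 1, and at 384 and 2.40 CPM in pool 2. That is 222-fold higher (log2 7.80 ± 0.17 SE, edgeR adjusted p = 1.01e-14). Cdk1, its partner kinase, was at 442 and 427 CPM against 9.57 and 5.68 CPM (log2 5.89). Ccna2, the cyclin of S phase and early mitosis, was at 282 and 251 CPM against 2.98 and 2.19 CPM (log2 6.74). Pbk, a mitotic kinase, reached 411 and 412 CPM against 6.59 and 8.96 CPM. Nek2, a kinase of the centrosome, had 656 UMIs in mitotic and 2 in unmarked cells, a ratio of 310 after scaling for depth with a counting interval of 85.5 to 2566.

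Spindle, motor and cytokinesis genes were higher in 35 of 35 (median 5.66). Prc1, which bundles the central spindle, was at 846 and 777 CPM against 7.66 and 4.59 CPM (log2 7.11 ± 0.15 SE, edgeR adjusted p = 6.12e-15). Nusap1, a microtubule protein of the spindle, was at 439 and 430 CPM against 2.13 and 2.40 CPM. Tpx2, the activator of Aurora A, was at 511 and 489 CPM against 5.32 and 4.37 CPM. Kif23, which acts in cytokinesis, was at 159 and 156 CPM against 1.49 and 0.656 CPM, and Cep55, of the same step, at 78.8 and 68.5 CPM against 0.638 and 0.219 CPM. For each of these genes both mitotic sums lay above both unmarked sums, by a margin far wider than that between the pools.

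Kinetochore, centromere and passenger complex genes were higher in 34 of 34 (median 4.94). Cenpf, a large protein of the outer kinetochore, was at 1605 and 1414 CPM against 20 and 10.3 CPM. Cenpa, the histone variant of centromeres, was at 573 and 557 CPM against 6.38 and 5.46 CPM (log2 6.63). Birc5, the survivin subunit of the chromosomal passenger complex, was at 451 and 429 CPM against 3.62 and 1.97 CPM. Zwint was the least different member, at log2 0.39.

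The APC/C list was divided: 16 of 22 were higher and 6 did not pass, with a median of 0.61. The ubiquitin-conjugating enzyme Ube2c was at 1103 and 1003 CPM against 8.93 and 6.12 CPM (log2 7.19), and the separase gene Espl1 was at 45.5 and 49.4 CPM against 0.638 and 0 CPM, with 3 UMIs in all unmarked partners. Fbxo5, an inhibitor of the complex, was at 112 and 99.0 CPM against 3.83 and 3.28 CPM. Subunits of the complex itself differed less, with Cdc23 at log2 1.06 and Cdc27 at 0.97, and Anapc4, Anapc13, Anapc16, Cdc16 and Cdc26 between -0.21 and 0.18 without passing; Pttg1, which encodes securin, was the sixth, at 0.29.

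Condensin and chromosome structure genes were higher in 21 of 21 (median 2.90). Mki67, a coat protein of mitotic chromosomes, was at 1309 and 1158 CPM against 14.0 and 9.18 CPM (log2 6.79). Top2a, the topoisomerase that disentangles DNA, was at 1564 and 1412 CPM against 28.5 and 19.2 CPM. Hmgb2 reached 2148 and 2625 CPM against 104 and 108 CPM.

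Of 18 transcription factors of the late cycle, 16 were higher and 0 lower, against 16.7% and 13.2% of all genes (median 1.45). Foxm1 was at 82.3 and 103 CPM against 2.55 and 1.09 CPM (log2 5.70 ± 0.23 SE, edgeR adjusted p = 1.13e-11). Mybl2, which encodes B-Myb, differed by log2 3.90, and the repressor E2f7 by 4.97. E2f8, a related repressor, was at 40.2 and 43.1 CPM against 4.47 and 1.97 CPM, log2 3.18 in pool 1 and 4.46 in pool 2. The MuvB subunits Lin9 and Lin54 differed by 1.82 and 2.0, and the NF-Y subunits Nfya, Nfyb and Nfyc by 0.57 to 0.70.

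**Figure D2:**
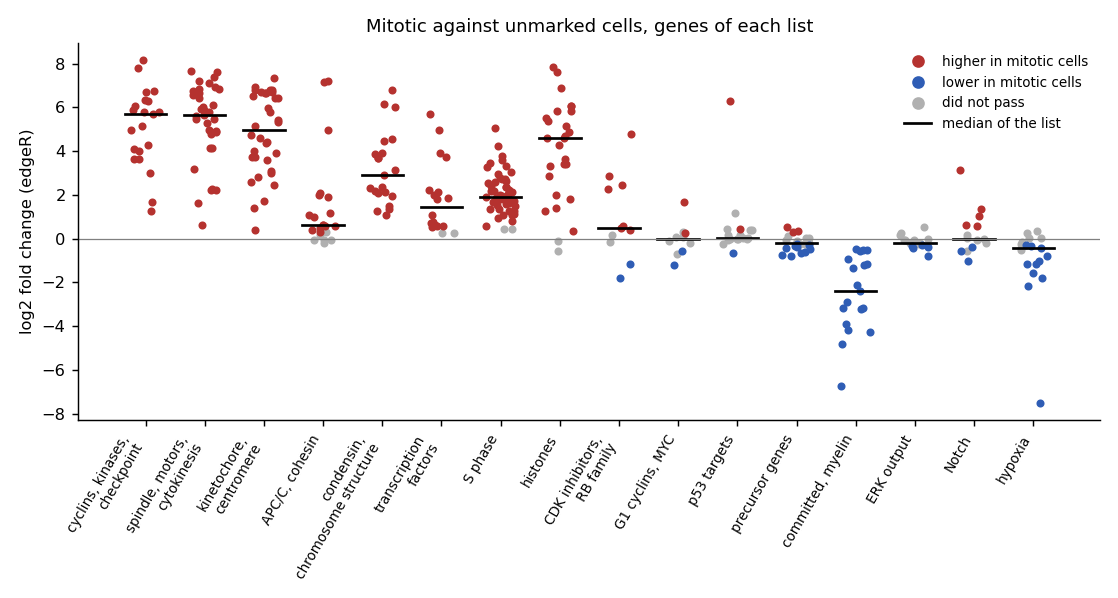
log2 fold change of each gene between mitotic and depth-matched unmarked cells, by gene list; red genes were called higher and blue lower by edgeR, grey genes did not pass, and black bars are list medians. The mitosis lists, S phase genes and histones lie almost wholly above 0, while committed and myelin genes and many hypoxia genes lie below it.

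The largest fold belonged to Arhgef39, a guanine nucleotide exchange factor, with 445 UMIs in mitotic and 0 in unmarked cells. With the floor taken as 3 counts in the pools together, it was at least 140-fold higher, though DESeq2 did not call it. Next were Hist1h2af, Pimreg, Nek2, Mxd3, Hist1h3c, Ccnb1, Kif14, Nusap1, Cep55, Birc5 and Kif23, in that order of fitted fold. Pimreg, a gene of the metaphase-to-anaphase step, was at 163 CPM in mitotic cells of both pools against 0.638 and 0.437 CPM. Mxd3, a MAX partner, had 861 UMIs against 3, a ratio of 271 with a counting interval of 92.5 to 1318, and Kif14, a kinesin of cytokinesis, had 661 against 3.

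Genes of DNA replication were higher too: 49 of 51 S phase genes were called higher and 0 lower, against 16.7% and 13.2% of all genes. Their median log2 difference was 1.91. The unmarked cells were chosen for holding none of 8 cell cycle genes. That choice bears on these counts and on those of the late-cycle transcription factors. Rrm2, a subunit of ribonucleotide reductase, was at 202 and 187 CPM against 13.4 and 8.30 CPM (log2 4.22). Tk1, thymidine kinase, was at 64.3 and 76.1 CPM against 2.34 and 1.97 CPM. Genes that license origins differed less, with Mcm4 at log2 0.96 and Mcm6 at 1.08. Replication-dependent histones were higher in 25 of 27 (median 4.6), with Hist1h1b at 433 and 699 CPM against 3.40 and 6.56 CPM. Their messages mostly lack the polyA tail that the library captures, and near-identical copies can share reads, so single histone genes are uncertain.

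Whether replication and mitosis genes stood in the same cells was looked at by counting 8 S phase genes (Mcm3, Mcm5, Mcm6, Cdc6, Dtl, Clspn, Uhrf1 and Hells) in each mitotic cell. Of the mitotic cells, 140 in pool 1 and 108 in pool 2 held UMIs of 4 or more, which is 50.4% and 49.8%. Those with fewer were shallower, with medians of 12183.5 and 14881 UMIs against 24861 and 25668.5, so the division depends on depth as well as state. All 8 S phase genes were seen in 43 and 37 mitotic cells, and none in 25 and 16.

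The mitotic cells with 4 or more S phase genes carried the histones. Their histone list summed to 4413 and 6318 CPM, against 1175 and 1517 CPM in the other mitotic cells. It summed to 559 and 702 CPM in S phase cells that were not mitotic, a class of 285 and 245 cells with 4 or more of the 8 S phase genes and fewer than 4 of the mitotic ones. Hist1h1b, a linker histone, was at 596 and 921 CPM in mitotic cells with 4 or more S phase genes and at 38.1 and 88.2 CPM in those with 0 to 3. In S phase cells it was at 41.3 and 68.6 CPM. The histone level was highest in cells that showed 4 or more of both sets of genes, 7.90 and 9.01 times that of S phase cells. For Ccnb1 the order was reversed: 267 and 211 CPM in mitotic cells with 4 or more S phase genes and 732 and 575 CPM in those with 0 to 3. Cenpf stood at 1022 and 894 CPM against 2451 and 1926 CPM.

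The same order appeared along the number of marker genes. The S phase list summed to 1012 and 907 CPM in unmarked cells, was highest at 4 to 5 marker genes, at 5556 and 4381 CPM, and stood at 2535 and 3054 CPM at 8. Histones were highest at 6 to 7 marker genes, at 5420 and 5953 CPM. Kinetochore genes were highest at 8, at 8077 and 7509 CPM. G1 cyclins, with MYC and their kinases, stayed between 3462 and 4243 CPM at every step. Cells with more marker genes were mostly deeper, and the part of depth in these levels was not tested.

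**Figure D3:**
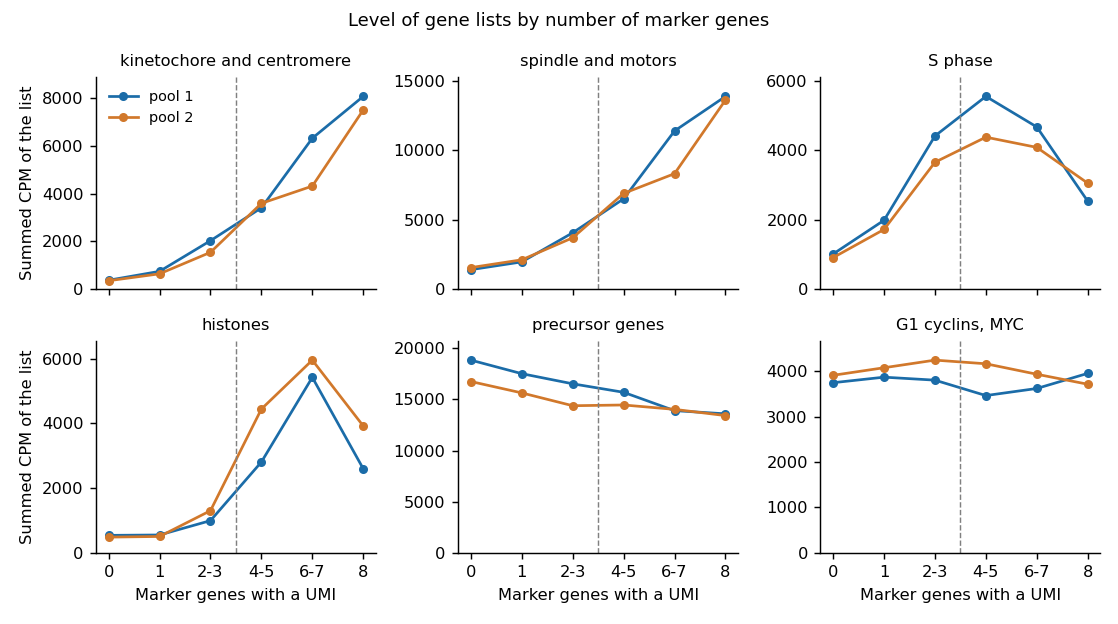
Summed CPM of 6 gene lists against the number of the 8 marker genes with a UMI, for pool 1 (blue) and pool 2 (orange); the dashed line marks the rule. S phase genes are highest at 4 to 5 marker genes, histones at 6 to 7 and kinetochore genes at 8, in both pools.

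Inhibitors of the cell cycle moved in both directions. Of 11 CDK inhibitor and RB family genes, 7 were higher and 2 lower, against 16.7% and 13.2% of all genes (median 0.48). Cdkn2c, which encodes the Cdk4 and Cdk6 inhibitor p18, was at 275 and 272 CPM in mitotic and 34.7 and 43.5 CPM in unmarked cells (log2 2.87 ± 0.11 SE, edgeR adjusted p = 3.90e-12). It had a UMI in 92.8% and 95.2% of mitotic cells and in 40.8% and 52.2% of their partners. Cdkn2d, which encodes p19, the fourth member of that inhibitor family, was at 228 and 200 CPM against 43.4 and 39.3 CPM, and Cdkn3, a phosphatase of Cdk1 and Cdk2, at 61.8 and 57.2 CPM against 2.34 and 2.19 CPM.

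Cdkn2b, which encodes the related inhibitor p15, went the other way. It was at 18.6 and 20.2 CPM in mitotic cells and 61.5 and 83.0 CPM in unmarked cells (log2 -1.82 ± 0.13 SE, edgeR adjusted p = 3.00e-08). It had a UMI in 22.3% and 24.9% of mitotic cells, against 43.8% and 56.5%. Members of 1 inhibitor family therefore stood on opposite sides of the comparison in both pools. Cdkn1c, which encodes p57, was the other gene called lower, at 3.96 and 1.26 CPM against 10.8 and 1.75 CPM. These levels are low, and the difference lay mainly in pool 1. Cdkn1a, the p21 gene and a p53 target, was called higher (log2 0.48, edgeR adjusted p = 0.0214), but the difference lay in pool 1, at 259 against 139 CPM, and not in pool 2, at 219 against 228 CPM. DESeq2 and the fit without the block did not call it. Of 17 p53 targets, 2 were higher and 1 lower, below the shares over all genes of 16.7% and 13.2%. Gtse1, a microtubule protein of G2 that binds p53, was at 43.5 and 56.5 CPM against 1.28 and 0 CPM, with 6 and 0 UMIs in the unmarked partners. Aen was higher at log2 0.46 and Bbc3 lower at -0.67, and both lost their calls with DESeq2 and without the block.

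Of 10 G1 regulators, 2 were higher and 2 lower, near the shares over all genes (16.7% and 13.2%), with a median of -0.02. Ccnd1, which encodes cyclin D1, was at 2333 and 2214 CPM against 2683 and 2793 CPM and did not pass (edgeR adjusted p = 0.122). Cdk2 was higher (log2 1.69). Mycl, at -1.22, Myc, at -0.55, and Cdk4, at 0.24, lost their calls with DESeq2 and without the block.

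Of 24 genes of oligodendrocyte precursors, 3 were higher and 10 lower, against 16.7% and 13.2% of all genes, with a median of -0.22. Pdgfra did not pass (log2 0.11 ± 0.09 SE, edgeR adjusted p = 0.376), nor did Olig2 (0.03, adjusted p = 0.811) or Sox10 (-0.24, adjusted p = 0.0542). C1ql1, a secreted precursor marker, was lower, at 167 and 135 CPM against 325 and 207 CPM, a call lost without the block. Gpr17 (log2 -0.65) and Neu4 (-0.79), which mark precursors on the way to differentiation, were lower too. The ligand genes Pdgfb and Pdgfa did not pass, at log2 -0.39 and 0.05.

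All 19 genes of committed precursors and myelin were called lower, against 13.2% of all genes, with a median of -2.40. Among the largest folds downward were those of Mal, Ptgds, Apod, Mag and Enpp6, but few cells carried them: 10 unmarked cells held at least 91.8% of each gene's UMIs in a pool. Without the cells that carry 4 or more markers of another type, Mbp differed by -0.79 in place of -2.12, and the list's median was -0.60. Mal, Apod and Mag were then no longer tested. Cnp, found more widely, was at 179 and 131 CPM against 447 and 292 CPM, and without those cells its log2 difference was -0.60 in place of -1.18.

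Below those came Vgf, a secreted neuropeptide precursor, at 7.72 and 18.5 CPM against 51.3 and 95.1 CPM, and Mt2, a metallothionein, at 5.74 and 39.9 CPM against 24.9 and 243 CPM. Bnip3, a hypoxia-induced mitophagy receptor, was at 8.51 and 9.46 CPM against 35.3 and 48.7 CPM (log2 -2.15). Aldoc, an aldolase of astrocytes and of hypoxic cells, was at 57.4 and 77.1 CPM against 162 and 359 CPM (log2 -1.82). Few cells carried much of Vgf and Mt2 too: 10 unmarked cells held 70.5% and 54.9% of the UMIs of Vgf and 75.2% and 50.5% of those of Mt2. Without cells of other types the differences of Vgf, Mt2, Bnip3 and Aldoc were -2.47, -2.41, -2.12 and -1.84.

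Bnip3 was 1 of 11 genes called lower among 19 of the hypoxia response, where 0 were higher and the median was -0.42. Of all genes, 13.2% were called lower and 16.7% higher. The glycolytic enzyme Aldoa was at 159 and 173 CPM against 353 and 431 CPM (log2 -1.17 ± 0.09 SE, edgeR adjusted p = 2.78e-08). Vegfa, the growth factor of vessels, was at 22.0 and 22.5 CPM against 42.3 and 52.2 CPM. Ndrg1 had 0 UMIs in the paired mitotic cells and 46 in their partners, but these lay in 1 and 3 unmarked cells, and DESeq2 did not call it. Of 17 ERK output genes, 5 were lower and 0 higher, against 13.2% and 16.7% of all genes. The differences were of small size, such as Phlda1 at -0.44 and Dusp6 at -0.36. Dusp6 lost its call with DESeq2 and without the block. Among 18 immediate early genes, 4 were lower and 1 higher, against 13.2% and 16.7% of all genes. The lower ones were Fos (log2 -0.63), Junb (-0.46), Egr1 (-0.32) and Klf2 (-1.22), and Ier5 was higher (0.97). Without the block Fos, Junb and Egr1 lost their calls, and Junb and Egr1 also with DESeq2.

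Of 14 Notch genes, 5 were higher and 3 lower, against 16.7% and 13.2% of all genes, with a median of -0.01. Nrarp, a feedback target of Notch, was at 71.7 and 49.8 CPM against 33.4 and 16.6 CPM (log2 1.36 ± 0.14 SE, edgeR adjusted p = 2.27e-06). The receptor gene Notch1 was at 169 and 189 CPM against 123 and 126 CPM, and the target gene Hes5 differed by log2 0.51 in pool 1 and 1.74 in pool 2. Hes1, at log2 0.60, lost its call with DESeq2 and without the block, and Notch2, which rested on 28 UMIs against 3, with DESeq2. Hes6, which opposes Hes1, was lower (-0.56), as were Hey2 (-1.03) and Dll3 (-0.38). Of 28 channel and synapse genes, 3 were higher and 6 lower, against 16.7% and 13.2% of all genes. Grik1 was at log2 0.86 and Gria1 at -0.72 in pool 1 and -1.57 in pool 2, and DESeq2 called neither. Of 10 nuclear noncoding RNAs, Neat1 was lower (-1.52). Xist had UMIs in pool 1 alone, at 1800 against 1383 CPM, so that its call as higher has no replicate. Malat1 did not pass (log2 -0.13, edgeR adjusted p = 0.531).

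The second comparison asked what separates mitotic cells from cells marked by the 8 S phase genes. The 247 mitotic cells with fewer than 4 of the 8 S phase genes were set against the S phase cells, in 134 and 105 pairs of equal depth. Mitotic cells enter both comparisons, so the results are not independent. Of 10857 genes tested, 1405 were higher in mitotic cells (12.9%) and 1221 lower (11.2%, 24.2% either way). DESeq2 called 379 and 132, and edgeR without the block 576 and 319, so the higher share of calls moved from 53.5% to 74.2% and 64.4%. The fit found the same spread for all genes, and its p-values rest on that.

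Cyclins, kinases and checkpoint genes stayed apart: 20 of 21 were higher, against 12.9% of all genes, with a median log2 difference of 2.80. Cdc25a, a phosphatase that opens S phase, was lower (-1.09). Ccnb1 was at 731 and 572 CPM in mitotic and 11.6 and 6.78 CPM in S phase cells (log2 6.20 ± 0.17 SE), the largest difference by fold. Cdk1 was at 540 and 459 CPM against 58.0 and 66.2 CPM (log2 3.07). Spindle genes were higher in 34 of 34 (median 3.69), and Aspm, a protein of spindle poles, was at 733 and 479 CPM against 20.7 and 14.6 CPM. Kinetochore genes were higher in 29 of 34 (median 2.5). Cenpa was at 887 and 844 CPM against 20.7 and 9.91 CPM, and Cenpf at 2421 and 1919 CPM against 85.2 and 40.1 CPM. Several proteins of the inner centromere or of kinetochore assembly did not pass: Cenpk, Cenph, Zwint, Dsn1 and Mis12 differed by log2 -0.43 to 0.46.

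Ube2c was at 1658 and 1426 CPM in mitotic and 37.8 and 19.3 CPM in S phase cells (log2 5.83), and the APC/C list had 13 of 22 higher (median 0.40). Condensin genes were higher in 18 of 21 (median 1.54), with Ncapg2 lower at -0.76. Top2a and Mki67 were already present in S phase cells, at 266 and 215 CPM and at 146 and 102 CPM, and stood at 1896 and 1279 CPM and at 1483 and 1073 CPM in mitotic cells. Among the genes of largest fold were also Pif1, a DNA helicase, with 207 UMIs against 3 (ratio 68.2, counting interval 23.0 to 334), Arhgef39 (log2 5.48) and Pimreg (5.31).

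**Figure D4:**
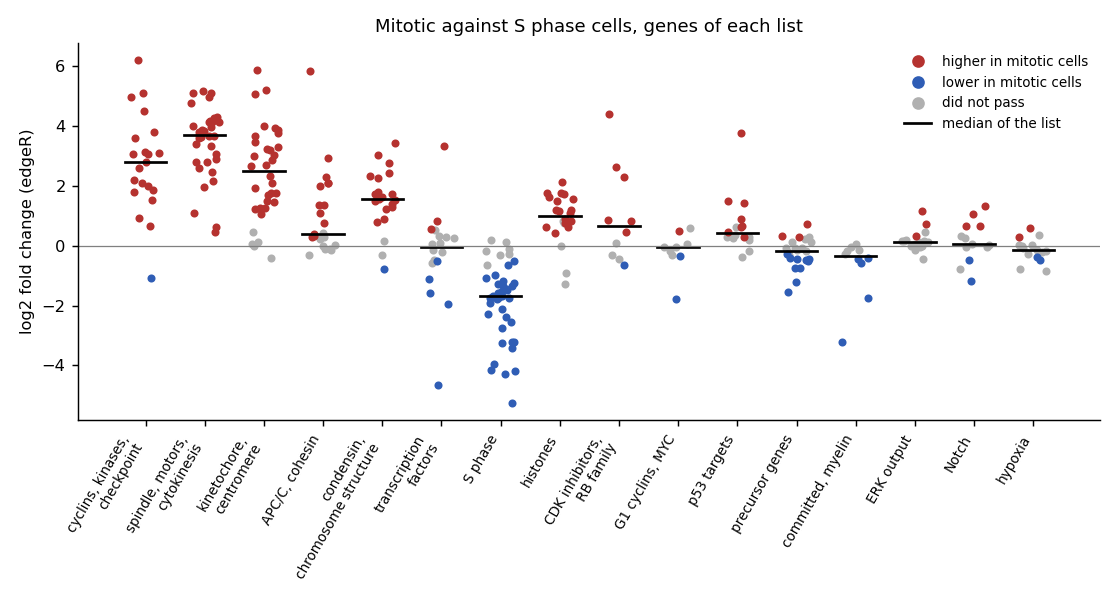
log2 fold change of each gene between mitotic cells with fewer than 4 S phase genes and depth-matched S phase cells, drawn as in the plot against unmarked cells. Of the S phase genes, 36 of 43 were called lower, and spindle genes lie above 0. Genes of both programmes helped to define the groups.

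Of 18 transcription factors, 3 were higher and 5 lower, against 12.9% and 11.2% of all genes. Foxm1 was at 107 and 110 CPM against 13.6 and 8.86 CPM (log2 3.33 ± 0.19 SE). E2f1, an activator of replication genes, was at 2.48 and 0 CPM against 33.8 and 35.5 CPM, with 5 UMIs against 135, and E2f2 was at 6.46 and 2.07 CPM against 18.2 and 16.7 CPM. E2f3 was lower, at log2 -1.13. Mybl2 was lower as well, at -1.59, and Tfdp1 at -0.52, while Lin37 and Nfyb were higher, at 0.81 and 0.57. DESeq2 did not call E2f1, E2f2 or E2f3.

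Of the other replication genes, 36 of 43 were lower and 0 higher, against 11.2% and 12.9% of all genes (median -1.69). Both arms were defined by 8 genes of the same programme, so this direction was set by the choice of cells and is a description. Ung, which removes uracil from DNA, was at 0.497 and 2.59 CPM against 70.6 and 55.8 CPM (log2 -5.25). The licensing factor Cdt1 was at 3.48 and 2.07 CPM against 46.9 and 62.6 CPM, and Mcm2 at 12.9 and 10.9 CPM against 124 and 115 CPM. Ccne2, Timeless, Zfp367 and Mcm4 also ranked among the largest folds downward, at log2 -3.43, -3.30, -3.27 and -3.22, as did Chaf1b, at 0.993 and 3.11 CPM against 35.8 and 42.2 CPM. Rrm1, Rrm2, Tk1 and Usp1 did not pass, at 0.20, -0.28, -0.19 and 0.12.

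**Figure D5:**
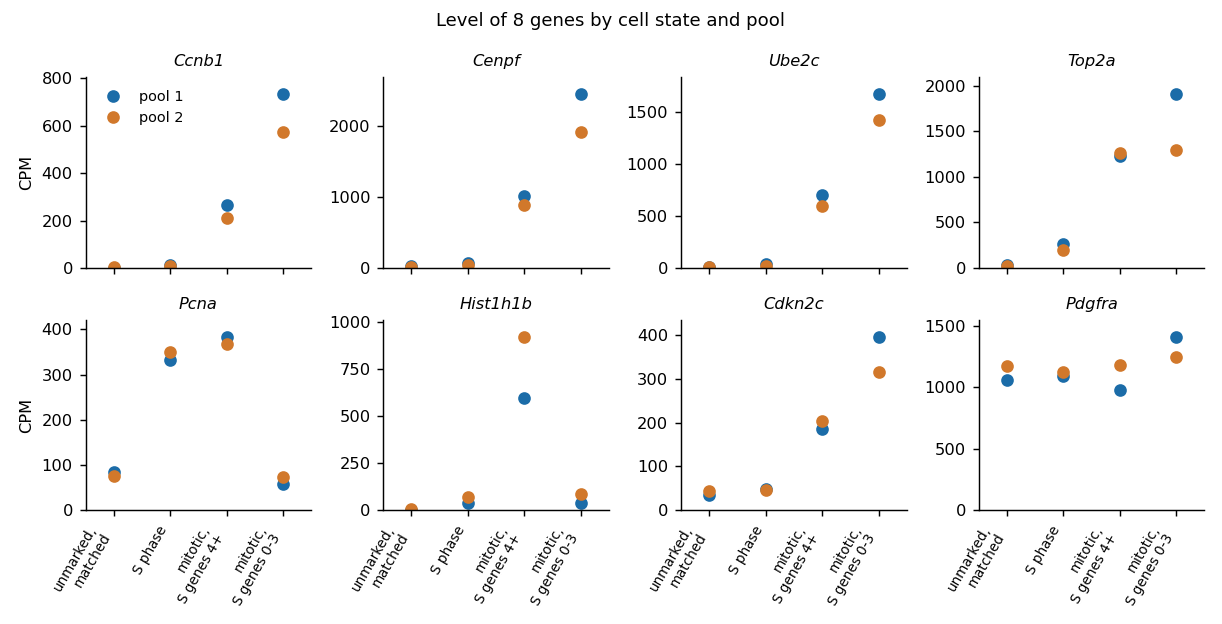
CPM of 8 genes in depth-matched unmarked cells, S phase cells, and mitotic cells with 4 or more or with 0 to 3 S phase genes; each point is 1 pool. Ccnb1, Cenpf and Ube2c are highest in mitotic cells with few S phase genes, Hist1h1b in those with many, Pcna in S phase cells and mitotic cells with many, and Pdgfra lies between 980 and 1408 CPM in every state.

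Cdkn2c, Cdkn2d and Cdkn3 were higher than in S phase cells too. Cdkn2c was at 389 and 312 CPM against 56.5 and 62.0 CPM (log2 2.63 ± 0.12 SE), Cdkn2d at 260 and 194 CPM against 48.9 and 48.5 CPM, and Cdkn3 at log2 4.40. Cdkn1a was at 224 and 198 CPM against 126 and 119 CPM (log2 0.85), here in both pools. Cdkn2b did not pass (-0.32). Of 16 p53 targets, 8 were higher and 0 lower, against 12.9% and 11.2% of all genes (median 0.41). Gtse1 (3.75), Sesn2 (1.48), Btg2 (1.42) and Zmat3 (1.06 in pool 1 and 0.26 in pool 2) had the smallest p, and DESeq2 did not call Sesn2, Btg2 or Zmat3.

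Precursor genes again had 3 of 24 higher and 10 lower, against 12.9% and 11.2% of all genes. C1ql1 was at 104 and 92.2 CPM against 293 and 312 CPM (log2 -1.55), and Opcml, Gpr17 and Neu4 were lower at -0.75, -0.76 and -1.22. Pdgfra was called higher (log2 0.30, edgeR adjusted p = 0.037), at 1403 and 1236 CPM against 1050 and 1192 CPM, and lost the call with DESeq2, without the block, and in 4 other settings of the rule and cell filters. Of 13 Notch genes, 4 were higher and 2 lower, against 12.9% and 11.2% of all genes. The higher ones were Hes5, at 58.6 and 45.1 CPM against 23.7 and 19.8 CPM (log2 1.31), Nrarp (1.07), Notch1 (0.67) and Hes1 (0.67). Without the block Nrarp and Hes1 lost their calls, Hes1 also with DESeq2. Rbpj was lower, at -0.48, and Hey2 at -1.39 in pool 1 and -0.56 in pool 2. Immediate early genes were higher in 6 of 17, against 12.9% of all genes, with Fosb at 1.03 and Egr1 at 0.34, neither called by DESeq2. Of 15 hypoxia genes, 2 were higher and 2 lower, near the shares over all genes (12.9% and 11.2%), and Bnip3 did not pass (-0.79).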

How the data were processed

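Polyadenylated RNA of 2 pools of sorted glioma cells was sequenced with the 10x Genomics 3′ chemistry, with 4000 cells loaded per pool, per the labels' protocols. The authors processed the reads with Cell Ranger 6.0.2 on GRCm38/mm10, per the submitters' processing notes, and deposited raw UMI counts per gene and barcode. Pool 1 held 17447 genes and 3843 barcodes (33.9 M UMIs, median 6215), and pool 2 held 17778 genes and 3650 barcodes (40.9 M UMIs, median 10086.5). A minimum of 500 genes and a ceiling of 15% mitochondrial UMIs left 3506 and 3278 cells. Scrublet called 0 and 2 doublets where 2.8% and 2.62% were expected, so doublets were not removed. Mitotic cells were 15 of the 98 cells of highest doublet score in pool 1 and 18 of the 86 in pool 2. Of all cells they were 7.93% and 6.62%. The part of doublets in cells that held both S phase and mitotic genes was not tested.

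Cells were matched 1 to 1 within a pool by log2 total UMIs (within 0.25), counts were summed per state and pool, and the 4 sums of each comparison were fitted with edgeR 4.0.16 (R 4.3.3; TMM, filterByExpr, quasi-likelihood, pool as a block, 1 residual degree of freedom). Both states come from the same pool, which is why the pool is the block. P-values were adjusted by Benjamini-Hochberg over all genes tested, with a threshold of 0.05. Nothing in the labels separates the tumours of a pool, so p-values do not measure the spread between tumours. They rest on the spread between these 2 pools, drawn towards a spread estimated across genes. That estimate had 14.3 prior degrees of freedom against unmarked cells, beside the 1 residual degree of freedom. Alternatives used DESeq2 1.42.0, other scaling, filters, rules and cells. On simulated counts for the comparison with unmarked cells (12063 genes), 89.8% of 2-fold and 100% of 4-fold changes were recovered with 6.06% false calls. For that with S phase cells (10710 genes) the values were 77.6%, 96.9% and 3.39%. The simulated counts had 98 changed genes of each size, the same spread for all genes and no difference between pools. Far more genes were called in the real data, so these rates cannot be carried over to them.

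Named genes were the 12 (unmarked) or 8 (S phase) of largest fold each way among those past the threshold, on the same side in both pools and with at least 20 CPM on average, up to 4 of smallest p per list, and a fixed set of cycle and lineage genes. Other list members were named after their values were seen. The members and the lists, which cover mitosis, late-cycle transcription factors, S phase, histones, CDK inhibitors, G1 regulators, p53 targets, lineage, ERK, immediate early, Notch, hypoxia, channel and nuclear RNA genes and markers of other cells, were chosen with earlier results of these data known. CPM were taken on the summed counts of the cells. Promoter windows came from RefSeq. Some genes that the rule names are not reported here.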

Additional observations from a re-analysis of the deposited data

How the results depend on the processing

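The pool served as a replicate block because both states of a pair come from 1 library. Without the replicate block, 1128 genes were higher and 420 lower against unmarked cells, and 576 and 319 against S phase cells; DESeq2, with the block, called 883 and 252, and 379 and 132. Each of these genes was also called by the reported fit. RLE factors, no count filter, 3 or 5 marker genes, a 10% mitochondrial limit, no depth matching, and leaving out high doublet scores, cells of other types or cells with S phase genes kept both counts within 1.5 times. List medians were less steady. Against unmarked cells without S phase genes, 13 moved by more than the SD between the pools and 7 did not. Without depth matching 10 moved and 10 did not, and against S phase cells 10 moved and 9 did not. Over all settings, 43 moved and 177 did not against unmarked cells, and 41 and 149 against S phase cells. Of the named genes, 22 lost their call against unmarked cells without the block and 23 with DESeq2, and 23 and 31 against S phase cells; among them, beyond those given above, were Apod and Enpp6 (both settings), Mt2 (no block) and Mag (DESeq2) against unmarked cells, and Cnp and Mbp (DESeq2) and Aldoa and Cdk4 (both) against S phase cells. Leaving out a pool gives log2 values with no test, so no count of called genes could be made; the value of 10 and 11 named genes then moved by more than the SD between the pools against unmarked cells, and of 4 and 3 against S phase cells. Signs reversed for genes that did not pass as reported: against unmarked cells, Pdgfa (-0.058 with 3 or more marker genes, -0.0090 with 5 or more, -0.00036 against unmarked cells without S phase genes), Pdgfra (-0.10), Ccnd1 (0.044) and Olig2 (-0.012) without depth matching, and Olig2 (-0.0096) without cells of other types; against S phase cells, Pdgfa (-0.12 with 3 or more, -0.014 without depth matching, -0.020 without high doublet scores) and Ccnd1 (0.035 with 3 or more). The share of mitotic cells was 9.64% and 7.96% with 3 or more genes, 6.70% in pool 1 with 5 or more, 4.73% and 3.89% at 3000 UMIs, 10.4% in pool 1 at 8000 and 5.56% in pool 2 at 5000. Over all unmarked cells, ribosomal shares were 7.88% and 10.8% and Malat1 5.50% and 4.91%. Leaving out cells of other types from the share was added after seeing the data and gave 7.83% and 6.64%. With 2 pools, small differences have little support, and low genes rest on few UMIs.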
